A study of Mus musculus with 16 samples.

Results

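The genes described here are 9 growth arrest and p53 target genes, Gadd45a, Gadd45b, Gadd45g, Cdkn1a, Mdm2, Btg2, Ccng1, Bax and Phlda3, out of 53465 genes in the count table of a mouse liver RNA-seq study. They were listed by name, and all 9 had enough counts to be tested. The study sequenced liver RNA of 16 C57BL/6 mice in 4 groups of 4. The groups cross diet, which was control (CD) or high-fat (HFD), with treatment, which was vehicle or perfluorooctanoic acid (PFOA), a fluorinated surfactant. Each diet was fed for 16 weeks and then for the 8 further weeks of treatment, and the mice were 29 to 30 weeks old. All 4 groups share the strain, the age and the time on a diet, and no allele or transgene is named for any of them. Neither the dose nor the animals' sex is stated in the sources used here. The question was whether growth arrest genes in liver follow the diet, PFOA or both.

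p53, encoded by Trp53, is a transcription factor that is stabilised by DNA damage and other stresses and switches on genes that stop the cell cycle or start apoptosis. Its protein level is set mainly by degradation, through Mdm2 and Mdm4, so the mRNA of its targets is the usual transcript readout of its activity. In liver, Cdkn1a restrains the division of hepatocytes, and Gadd45 genes are also switched on by stress kinases, nutrient stress and nuclear receptors without p53. PFOA activates the receptor PPARA, which in rodents drives fatty acid oxidation and liver growth.

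The promoters of the 4 members that changed most are shown because 3 of them belong to 1 family and moved in different directions. Each is 300 bases, from 250 before to 50 after the RefSeq transcription start, on GRCm38.p6, written 5′ to 3′ on the strand of the gene. Capitals mark exact matches to the decamer that each p53 dimer binds, to CCAAT and to TATAAA.
Gadd45a (chr6:67037358-67037657, minus strand): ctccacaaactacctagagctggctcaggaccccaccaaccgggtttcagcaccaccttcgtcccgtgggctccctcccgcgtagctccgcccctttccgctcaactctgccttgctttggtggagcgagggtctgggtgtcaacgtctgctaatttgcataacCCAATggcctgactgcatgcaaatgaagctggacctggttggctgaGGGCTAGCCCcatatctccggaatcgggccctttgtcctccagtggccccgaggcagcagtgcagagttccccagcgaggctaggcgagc
Gadd45b (chr10:80929841-80930140, plus strand): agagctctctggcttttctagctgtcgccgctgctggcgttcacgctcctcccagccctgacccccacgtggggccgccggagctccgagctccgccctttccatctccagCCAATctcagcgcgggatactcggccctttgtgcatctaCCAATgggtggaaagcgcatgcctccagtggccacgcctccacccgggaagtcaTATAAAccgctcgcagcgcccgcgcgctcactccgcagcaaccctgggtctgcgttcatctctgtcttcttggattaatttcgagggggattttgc
Gadd45g (chr13:51846425-51846724, plus strand): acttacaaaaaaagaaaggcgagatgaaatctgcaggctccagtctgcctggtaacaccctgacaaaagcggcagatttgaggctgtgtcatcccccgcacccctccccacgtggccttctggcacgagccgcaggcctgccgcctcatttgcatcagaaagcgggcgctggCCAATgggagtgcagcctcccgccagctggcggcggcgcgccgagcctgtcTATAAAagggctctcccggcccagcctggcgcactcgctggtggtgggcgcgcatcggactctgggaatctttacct
Cdkn1a, first of 2 listed starts (chr17:29090729-29091028, plus strand): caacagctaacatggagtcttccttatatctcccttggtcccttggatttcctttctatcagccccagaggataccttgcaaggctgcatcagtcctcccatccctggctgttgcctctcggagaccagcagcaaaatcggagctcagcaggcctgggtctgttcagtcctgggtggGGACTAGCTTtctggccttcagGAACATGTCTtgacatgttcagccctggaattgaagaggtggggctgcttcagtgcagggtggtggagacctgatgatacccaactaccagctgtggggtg

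All 9 members matched the RefSeq table, with 10 windows because Cdkn1a has 2 starts, 2790 bases apart. The p53 decamer was in 5 of the 10 windows, against 8.36% of 32851 mouse promoter windows of the same length. Gadd45a held it at −40 (gggctagccc), and the first Cdkn1a window at −73 (ggactagctt) and −51 (gaacatgtct), counted from the first transcribed base. Mdm2 held it at −186 (gaacttgcct), Ccng1 at −185 (gggcaagcct) and Bax at −201 (aggcaagctt). Gadd45b, Gadd45g, Btg2 and Phlda3 held no exact match in the window, and neither did the second Cdkn1a window. The core promoters of the Gadd45 family also differed in letters: Gadd45b and Gadd45g held TATAAA (13.6% of all windows) and Gadd45a did not. CCAAT was in 6 member windows (37.4% of all windows), GGGCGG in 7 (35.7%), CACGTG in 3 (7.15%) and TGACGTCA in 1, that of Btg2 (1.79%). Both strands were searched, and the motifs do not contain each other. A match is a description of letters and shows no binding.

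The libraries held 14456524 to 25778125 counts. Hepatocyte markers summed to 57860 to 148100 CPM (counts per 1000000 counts of the scaled library) over the libraries, and 9 of 10 of them fell with PFOA in each diet and 7 of 10 with HFD under vehicle. B cell markers summed to 647 CPM in CD_vehicle 4 and to 18.8 to 68.6 CPM in the other 15 libraries. CD_vehicle 4 was also the highest of its group for macrophage markers (617 CPM against 308.6 to 365.6). The same held for T and NK cell markers (15.12 CPM against 1.358 to 3.794) and cholangiocyte markers (97.26 CPM against 45.9 to 51.25). CD_vehicle 1 and CD_vehicle 4 lay at 17.9 and −7 on the second principal component, against 27.6 and 34.3 for the other CD_vehicle libraries. Members' results that changed a call without both of them are therefore also given without both. The same holds for called results that moved by over 1.5 times without both. Such fits leave only CD_vehicle 2 and CD_vehicle 3 in their group. For Gadd45b, Gadd45g, Cdkn1a, Mdm2 and Btg2 both left-out libraries lay above these. Leaving them out therefore lowers the CD_vehicle level of these genes by selection, and the fits are no independent support. Acot1, a PPARA target that checks the exposure, rose with PFOA by 4.83 (log2) in CD and 5.15 in HFD. A gene is called where the adjusted p of edgeR's quasi-likelihood test, over 14998 genes, is under 0.05. In bulk liver, fewer cells of a type and less RNA per cell cannot be told apart.

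PFOA in CD raised 2 of the 9 members, Gadd45a and Gadd45b, and lowered 2, Gadd45g and Cdkn1a, while 24.4% of all tested genes were called in that comparison. In HFD, PFOA raised 1 member, Gadd45a, and lowered 3, Gadd45g, Cdkn1a and Btg2, while 16.5% of all genes were called. HFD under vehicle raised 1 member, Gadd45a, and lowered 0, while 10.4% of all genes were called. HFD under PFOA changed 0 of 9 members (2 at an unadjusted p under 0.05, and 0 by DESeq2), while 0.0600% of all genes were called. HFD_PFOA against CD_vehicle had 2 members higher, Gadd45a and Gadd45b, and 2 lower, Gadd45g and Cdkn1a, while 29.9% of all genes were called. The PFOA effect differed between diets for 1 member, Gadd45a, while 0.207% of all genes had a called difference. The median log2 fold change of the 9 members was −0.35 for PFOA in CD, −0.41 for PFOA in HFD and 0.55 for HFD under vehicle, against 0, 0.01 and −0.03 over all tested genes. With CD_vehicle 1 and CD_vehicle 4 both left out, the number of members called was 4 for PFOA in CD, 5 for PFOA in HFD and 4 for HFD under vehicle.

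**Figure D1:**
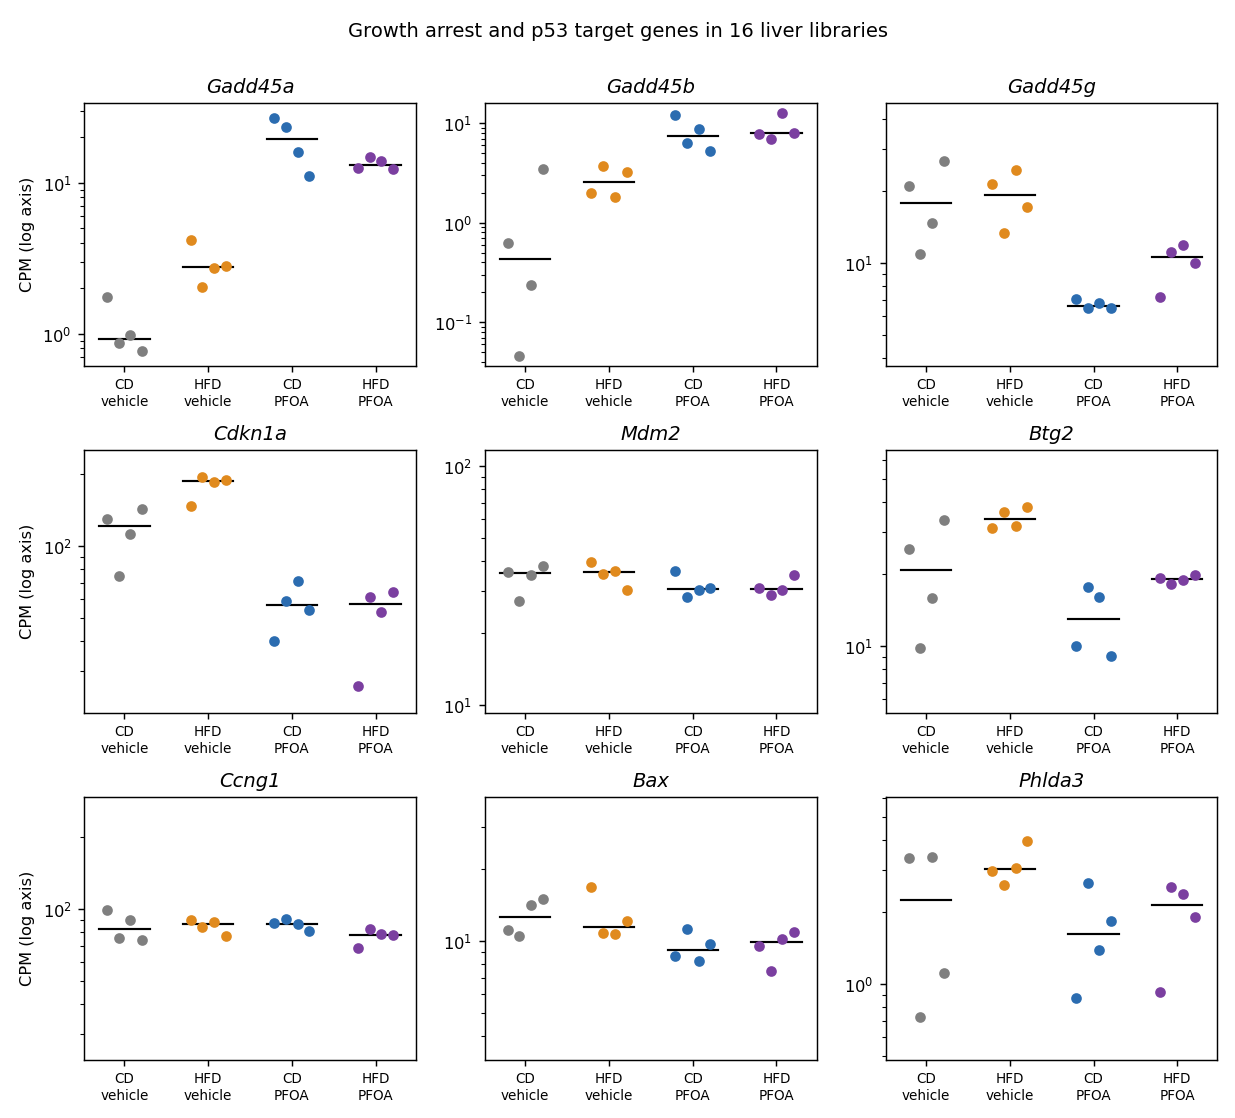
CPM of the 9 genes in each of 16 liver libraries (log axis), by group, with 1 point per mouse and a bar at the group median. Gadd45a is lowest in CD_vehicle (0.769 to 1.75 CPM) and highest under PFOA, whereas all PFOA libraries of Cdkn1a lie below all vehicle libraries.

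**Figure D2:**
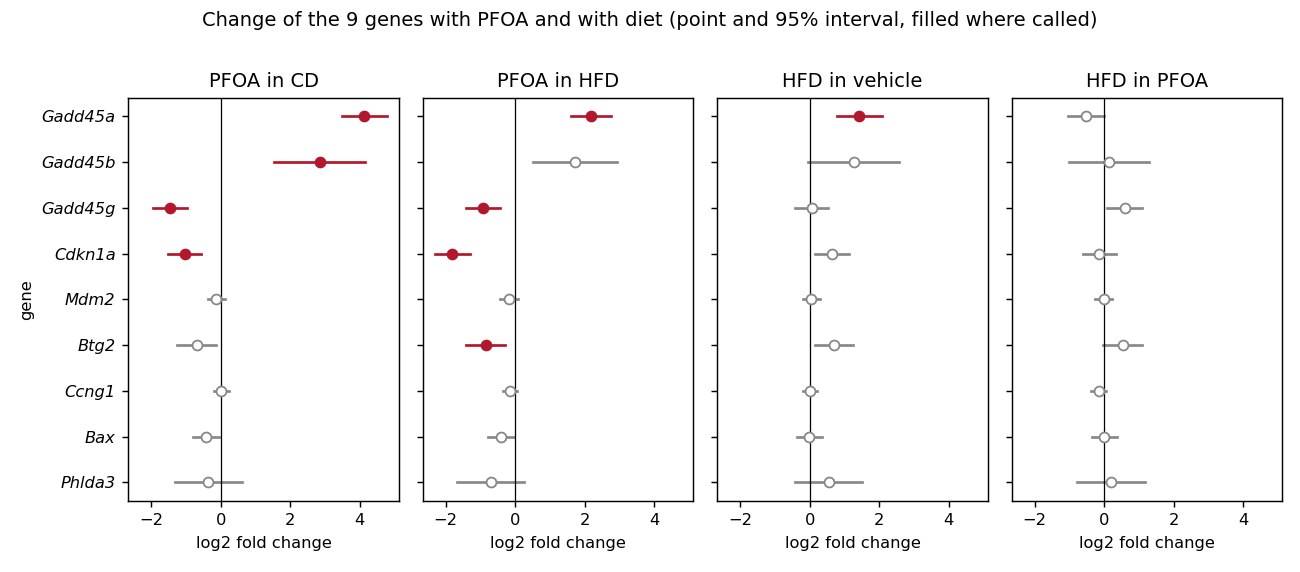
Log2 fold change with its 95% interval for the 9 genes in 4 comparisons, filled where called. Gadd45a lies right of 0 with PFOA in both diets and with HFD under vehicle, and 0 genes are filled for HFD under PFOA.

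Gadd45a (ENSMUSG00000036390.8, 2 exon blocks, chr6:67035096-67037457, minus strand, GRCm38) encodes a small stress protein that binds PCNA, the kinase CDK1 and the kinase MAP3K4. Its level was 1.75, 0.870, 0.984 and 0.769 CPM in the 4 CD_vehicle libraries and 4.17, 2.04, 2.73 and 2.80 CPM in HFD_vehicle. With PFOA it was 26.8, 23.3, 15.9 and 11.2 CPM in CD_PFOA and 12.5, 14.7, 13.9 and 12.4 CPM in HFD_PFOA. The vehicle groups overlapped neither each other nor either PFOA group, and the HFD_PFOA libraries lay inside the range of CD_PFOA. The rise with PFOA in CD was 4.13 ± 0.31 (log2, SE, 17.5-fold, adjusted p = 6.19e-09). In HFD the rise with PFOA was 2.17 ± 0.27 (4.51-fold, adjusted p = 1.01e-05).

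HFD alone raised Gadd45a by 1.43 ± 0.31 (log2, 2.69-fold, adjusted p = 0.00592). Under PFOA the diet difference was −0.53 ± 0.25 with a 95% interval of −1.05 to 0 (adjusted p = 0.446). HFD_PFOA exceeded CD_vehicle by 3.60 ± 0.30 (12.1-fold, adjusted p = 2.94e-08), less than the sum of the single effects. The test of that shortfall, the interaction, gave −1.95 ± 0.40 (adjusted p = 0.0469). The interaction call was lost in 12 of the 16 fits that each left out 1 library, among them every fit without 1 of the HFD_PFOA libraries, with adjusted p from 0.0614 to 0.103 in those 12. Gadd45a shares 337 exonic bases with E230016M11Rik on the opposite strand, which had 161 counts against 3547 for Gadd45a. The libraries are not stranded, so reads from the shared bases cannot be told apart.

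Gadd45b (ENSMUSG00000015312.9, chr10:80930073-80932204, plus strand) encodes a relative that NF-kB and TGF-beta signals also induce, and it is known for rising in regenerating liver. Its level was 0.626, 0.0458, 0.234 and 3.50 CPM in CD_vehicle, where the second library held 1 read. In HFD_vehicle it was 1.97, 3.72, 1.80 and 3.22 CPM. With PFOA it was 12.1, 6.25, 8.73 and 5.19 CPM in CD_PFOA and 7.75, 6.88, 12.6 and 8.03 CPM in HFD_PFOA. All PFOA libraries lay above all vehicle libraries, and CD_vehicle 4 was the only CD_vehicle library inside the range of HFD_vehicle. PFOA raised Gadd45b in CD by 2.85 ± 0.62 (log2, 7.2-fold, adjusted p = 0.00213). Without CD_vehicle 4 the rise was 4.68 (adjusted p = 9.2e-07), and without CD_vehicle 1 and CD_vehicle 4 it was 5.8, also called. HFD_PFOA exceeded CD_vehicle by 2.98 (adjusted p = 0.00119), by 4.81 without CD_vehicle 4, and by 5.93 without CD_vehicle 1 and CD_vehicle 4.

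In HFD the Gadd45b difference with PFOA was 1.71 ± 0.58 (3.28-fold) and its adjusted p of 0.0501 missed the threshold. The difference was called in 8 of 22 alternatives. Among them were the fits without CD_vehicle 1 (adjusted p = 0.0398), CD_vehicle 2 (0.0173), CD_vehicle 3 (0.0365) or CD_vehicle 4 (0.00169), with the same fold change in each. It was also called with RLE scaling (0.0495), with no filter (6.59e-04) and when the spread came from the HFD groups alone (1.73e-04). The adjusted p was 2.83e-04 without CD_vehicle 1 and CD_vehicle 4. HFD under vehicle gave 1.27 ± 0.63 (adjusted p = 0.227). Without CD_vehicle 4 the same diet difference was 3.1 (adjusted p = 3.85e-04), and the interaction moved from −1.14 (adjusted p = 0.684) to −2.97 (adjusted p = 0.0153). Without CD_vehicle 1 and CD_vehicle 4 the diet difference was 4.22 (adjusted p = 7.51e-05) and the interaction was −4.09 (adjusted p = 0.00176). The CD_vehicle level in that fit rests on CD_vehicle 2 and CD_vehicle 3, with 1 and 5 Gadd45b reads. Whether B cells or other cells with high markers in CD_vehicle 4 supply its Gadd45b reads was not tested.

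Gadd45g (ENSMUSG00000021453.2, chr13:51846678-51848468, plus strand) completes the family and is induced in liver by cytokine and growth hormone signals. It went the other way from its relatives. Its level was 21.0, 10.9, 14.7 and 26.7 CPM in CD_vehicle and 21.5, 13.4, 24.5 and 17.2 CPM in HFD_vehicle. With PFOA it was 7.06, 6.50, 6.79 and 6.50 CPM in CD_PFOA and 7.20, 11.1, 11.9 and 9.99 CPM in HFD_PFOA. The CD_PFOA libraries were close together and lay below every other library, and the HFD_PFOA libraries lay below every HFD_vehicle library.

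PFOA lowered Gadd45g by 1.45 ± 0.24 on the log2 scale in CD (log2 fold change −1.45, 2.73-fold lower, adjusted p = 1.27e-04), and the value was −0.94 (adjusted p = 0.00343) with CD_vehicle 1 and CD_vehicle 4 left out. In HFD its log2 fold change with PFOA was −0.92 ± 0.23 (adjusted p = 0.00812). Diet gave 0.06 ± 0.23 under vehicle (95% interval −0.42 to 0.54) and 0.59 ± 0.24 under PFOA (95% interval 0.09 to 1.08, adjusted p = 0.361). HFD_PFOA against CD_vehicle gave −0.86 ± 0.23 (adjusted p = 0.00759), which became −0.35 (adjusted p = 0.264) with CD_vehicle 1 and CD_vehicle 4 left out.

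Cdkn1a (ENSMUSG00000023067.13, chr17:29090976-29100727, plus strand) encodes p21, which inhibits cyclin-dependent kinases and is the best known p53 target for arrest in G1. Its level was 128.9, 74.6, 111.7 and 142.3 CPM in CD_vehicle and 146, 194, 184 and 187 CPM in HFD_vehicle. With PFOA it was 39.8, 58.9, 71.3 and 53.6 CPM in CD_PFOA and 25.8, 60.7, 52.8 and 63.8 CPM in HFD_PFOA. Every PFOA library lay below every vehicle library, and every HFD_vehicle library lay above every CD_vehicle library. The PFOA groups overlapped each other.

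PFOA lowered Cdkn1a in CD (log2 fold change −1.03 ± 0.23, 2.05-fold lower, adjusted p = 0.00261). In HFD the fall with PFOA was larger in size (−1.81 ± 0.24, 3.5-fold lower, adjusted p = 1.6e-05), but the difference between the falls, −0.77 ± 0.33, was not called (adjusted p = 0.365). HFD under vehicle gave 0.64 ± 0.23 (1.55-fold, adjusted p = 0.0849), not called although the groups did not overlap. That diet difference was called in 6 of 22 alternatives. Among them were fits without CD_vehicle 4 (0.76, adjusted p = 0.0395) and without CD_vehicle 1 and CD_vehicle 4 (0.93, adjusted p = 0.0187). Scaling by library totals (0.85, adjusted p = 0.0238) and no filter on low counts (0.65, adjusted p = 0.00258) were 2 more. HFD under PFOA gave −0.14 ± 0.23 (95% interval −0.62 to 0.35).

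Btg2 (ENSMUSG00000020423.6, chr1:134075170-134079120, minus strand) encodes an antiproliferative protein that recruits the deadenylase complex to mRNA and is also an immediate early gene. Its level was 25.5, 9.85, 15.9 and 33.7 CPM in CD_vehicle and 31.0, 36.4, 31.6 and 38.0 CPM in HFD_vehicle. With PFOA it was 10.01, 17.7, 15.97 and 9.08 CPM in CD_PFOA and 19.2, 18.1, 18.9 and 19.8 CPM in HFD_PFOA. In HFD the PFOA libraries lay below all vehicle libraries, whereas in CD the groups overlapped because CD_vehicle 2 and CD_vehicle 3 were low.

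PFOA lowered Btg2 in HFD (log2 fold change −0.85 ± 0.26, adjusted p = 0.0309). The call was lost in 6 fits without 1 library, those without HFD_vehicle 2 or 4 or any of the HFD_PFOA libraries, with adjusted p of 0.0617 to 0.0794. In CD the difference was −0.69 ± 0.27 (adjusted p = 0.0682), and leaving out 1 library moved it between −0.93 and −0.38. It was called in 3 of those fits, without CD_vehicle 2 (adjusted p = 0.0048), CD_vehicle 3 (0.0487) or CD_PFOA 2 (0.039), and with no filter on low counts (0.00593). Without CD_vehicle 1 and CD_vehicle 4 it was 0.03 (adjusted p = 0.943). HFD under vehicle gave 0.69 ± 0.26 (adjusted p = 0.105), and 1.01 (adjusted p = 0.00804) without CD_vehicle 4. Without CD_vehicle 1 and CD_vehicle 4 it was 1.41 (adjusted p = 2.51e-04). It was also called with library totals (0.89, adjusted p = 0.0366) and with no filter (0.7, adjusted p = 0.0078), so in 4 of 22 alternatives. The HFD_vehicle group had the highest mean for Btg2, as it did for Cdkn1a, Gadd45g, Mdm2 and Phlda3.

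Mdm2, Ccng1, Bax and Phlda3 were called in 0 of the 6 comparisons by edgeR, with unadjusted p under 0.05 only for Bax. Mdm2 (chr10:117688875-117710758, minus strand) encodes the ubiquitin ligase that degrades p53 and is itself a p53 target. Its lowest, median and highest levels over CD_vehicle were 27.2, 35.6 and 38.2 CPM, and its range over all 16 libraries was 27.2 to 39.7 CPM. The log2 fold change with PFOA was −0.12 in CD (95% interval −0.36 to 0.12) and −0.18 in HFD (−0.42 to 0.07). With HFD under vehicle it was 0.05 (−0.19 to 0.3). The intervals with PFOA leave out changes of the size called for the Gadd45 genes. The interval with HFD leaves out the called rise of Gadd45a (1.43) but includes the Gadd45g difference of 0.06, which was not called.

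Ccng1 (chr11:40748552-40755311, minus strand) encodes cyclin G1, a p53 target that feeds back on p53 through a phosphatase. All 4 groups overlapped, with libraries between 68.9 and 99.3 CPM. Its log2 fold change was 0.02 with PFOA in CD (95% interval −0.18 to 0.23), −0.14 in HFD (−0.35 to 0.06) and 0 with HFD under vehicle (−0.2 to 0.21). These were the narrowest intervals among the 9 members.

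Bax (chr7:45461697-45466898, minus strand) encodes the pore-forming protein of the mitochondrial death pathway. Its level was 11.1, 10.4, 14.1 and 14.95 CPM in CD_vehicle and 8.64, 11.2, 8.22 and 9.65 CPM in CD_PFOA. In HFD_vehicle it was 16.8, 10.8, 10.7 and 12.03 CPM, and in HFD_PFOA 9.49, 7.49, 10.2 and 10.9 CPM. In each diet 1 PFOA library lay inside the range of the vehicle group and the other PFOA libraries lay below it. The log2 fold change with PFOA was −0.42 ± 0.18 in CD (adjusted p = 0.0896) and −0.41 ± 0.18 in HFD (adjusted p = 0.131), neither called.

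Phlda3 (chr1:135766119-135769136, plus strand) encodes a p53-induced repressor of AKT signalling and was the least precise member. Its libraries ran from 0.733 to 3.98 CPM, with 16 to 104 counts each. The 95% interval was −1.32 to 0.61 for PFOA in CD, −1.66 to 0.26 for PFOA in HFD and −0.41 to 1.51 for HFD under vehicle. These intervals include a 2-fold fall with PFOA and a 2-fold rise with HFD, so changes of that size are not excluded. In HFD every PFOA library of Phlda3 lay below every vehicle library, without a call (adjusted p = 0.348).

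Levels between genes were compared per kilobase of exons. In CD_vehicle, Cdkn1a was highest at 32.2 ± 8.25 CPM per kb (SD, n = 4), followed by Ccng1 at 24.1 ± 3.42 and Gadd45g at 15.6 ± 5.91. Cdkn1a and Ccng1 overlapped within their SDs, as did Ccng1 and Gadd45g. Bax, Btg2 and Mdm2 lay together at 8.03 ± 1.40, 7.74 ± 3.84 and 6.72 ± 0.946 CPM per kb, with SDs that overlap. Phlda3 at 1.39 ± 0.922, Gadd45b at 0.694 ± 1.02 and Gadd45a at 0.620 ± 0.254 CPM per kb were lowest, and also did not separate beyond their SDs. In CD_PFOA the order was different: Ccng1 at 24.5 ± 1.16 came first, Cdkn1a at 15.7 ± 3.68 came next and Gadd45a at 10.9 ± 4.00 CPM per kb followed, within the SDs of Cdkn1a. Within the family, Gadd45g was the highest of the Gadd45 transcripts in both vehicle groups, at 15.6 ± 5.91 and 16.3 ± 4.15 CPM per kb. With PFOA in CD, Gadd45a exceeded Gadd45g (5.72 ± 0.229), whereas in HFD_PFOA Gadd45g at 8.59 ± 1.77 and Gadd45a at 7.58 ± 0.626 CPM per kb lay within their SDs.

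The genes whose log2 CPM followed a member most closely over the 16 libraries were found among 12364 genes with a mean of at least 1 CPM. These correlations include the group differences that all the genes share and carry no test. Gadd45a was followed by Flvcr2 (Pearson r = 0.972), a membrane transporter, and Sh3d21 (0.971). Gadd45b was followed by Hunk (0.958), a kinase, and Tns2 (0.958), a focal adhesion protein. Gadd45g was followed by Fam114a1 (0.919) and the class I antigen gene H2-D1 (0.914), and Cdkn1a by the centrosomal gene Cep85 (0.955) and 1810055G02Rik (0.945). Btg2 was followed by Rpa2 (0.921) and Actb (0.916). The highest r was lower for the members that were not called: 0.758 for Mdm2, 0.791 for Phlda3, 0.856 for Bax and 0.876 for Ccng1.

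Trp53 itself changed little. Its level was 16.6, 18.0, 16.2 and 17.9 CPM in CD_vehicle and 24.5, 23.3, 21.2 and 19.9 CPM in CD_PFOA, without overlap. The rise was 0.37 ± 0.12 (log2, 1.29-fold, adjusted p = 0.0275), and with HFD the PFOA difference was −0.02 ± 0.12 (adjusted p = 0.95). Among 10 tested genes of the list of p53 and its regulators, 2 rose and 0 fell with PFOA in CD, and the same counts held in HFD, where the risers were Mdm4 and the DNA damage kinase Atr. The count in CD was 1 without CD_vehicle 1, CD_vehicle 3, CD_PFOA 1 or CD_PFOA 2, and 0 with CD_vehicle 1 and CD_vehicle 4 both left out. The count in HFD was 1 without HFD_vehicle 1, 2 or 4 or HFD_PFOA 1, 2 or 4. Mdm4, an inhibitor of p53, rose in both, by 0.46 in CD (adjusted p = 0.00629) and 0.51 in HFD (adjusted p = 0.00427).

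Other p53 targets did not move in 1 direction. Of 29 tested, 4 rose and 6 fell with PFOA in CD, 3 rose and 4 fell in HFD, and 2 rose and 0 fell with HFD under vehicle. The same comparisons called 24.4%, 16.5% and 10.4% of all tested genes, the shares that stand beside every list count in them. Their median log2 fold change was 0.08, −0.01 and 0.02, against 0, 0.01 and −0.03 over all genes. Fas, a death receptor, rose by 0.60 (adjusted p = 0.00138) and 0.78 (adjusted p = 1.39e-04) with PFOA in CD and HFD. Sesn2, a sensor in amino acid signalling that the stress factor ATF4 also induces, rose by 0.65 and 0.47. Ddit4, an inhibitor of mTORC1, fell with log2 fold changes of −1.30 and −1.26, and Ei24 fell with −0.43 and −0.46. With HFD under vehicle, Tnfrsf10b, another death receptor, rose by 1.47 (adjusted p = 0.0384) and Polk, a DNA polymerase, by 0.57 (adjusted p = 0.0458), and without CD_vehicle 4 the count of risers was 0. Zmat3, Aen and Eda2r, textbook p53 targets named here after their values were seen, were called in 0 comparisons. For PFOA in CD their log2 fold changes were −0.17, −0.28 and 0.66. The count of falls in CD was 3 with scaling by library totals and 2 with the spread of the CD groups alone.

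Other growth arrest genes were also split. Of 19 tested, 3 rose and 5 fell with PFOA in CD, 1 rose and 2 fell in HFD, and 1 rose with HFD under vehicle. The count of falls in CD was 2 without CD_PFOA 1 and 2 with scaling by library totals, and in HFD it was 5 without CD_vehicle 1 and CD_vehicle 4. Foxo3, a factor that promotes quiescence, fell with −0.77 in CD and −0.50 in HFD, and Ndrg1 rose by 1.09 and 0.96. Klf6 rose by 1.1 with HFD under vehicle (adjusted p = 0.0209). Among relatives of the members, Tob2, of the family of Btg2, fell with PFOA (−0.56 in CD, −0.89 in HFD), and Phlda1 rose by 0.96 and 0.95. Of 8 kinases that Gadd45 proteins act through, 1 rose and 1 fell with PFOA in each diet, while 24.4% of all tested genes were called in CD and 16.5% in HFD. Mapk9, which encodes the kinase JNK2, rose by 0.27 in CD (adjusted p = 0.0216) and by 0.30 in HFD (adjusted p = 0.0145). Map3k4, the direct partner, fell in CD (−0.43, adjusted p = 0.00802), and Map2k6 fell in HFD (−2.26, adjusted p = 1.89e-04). The count of risers was 0 in CD without CD_vehicle 3, CD_PFOA 1 or CD_PFOA 4 and in HFD without HFD_PFOA 1, and the count of falls in CD was 2 without CD_PFOA 4.

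**Figure D3:**
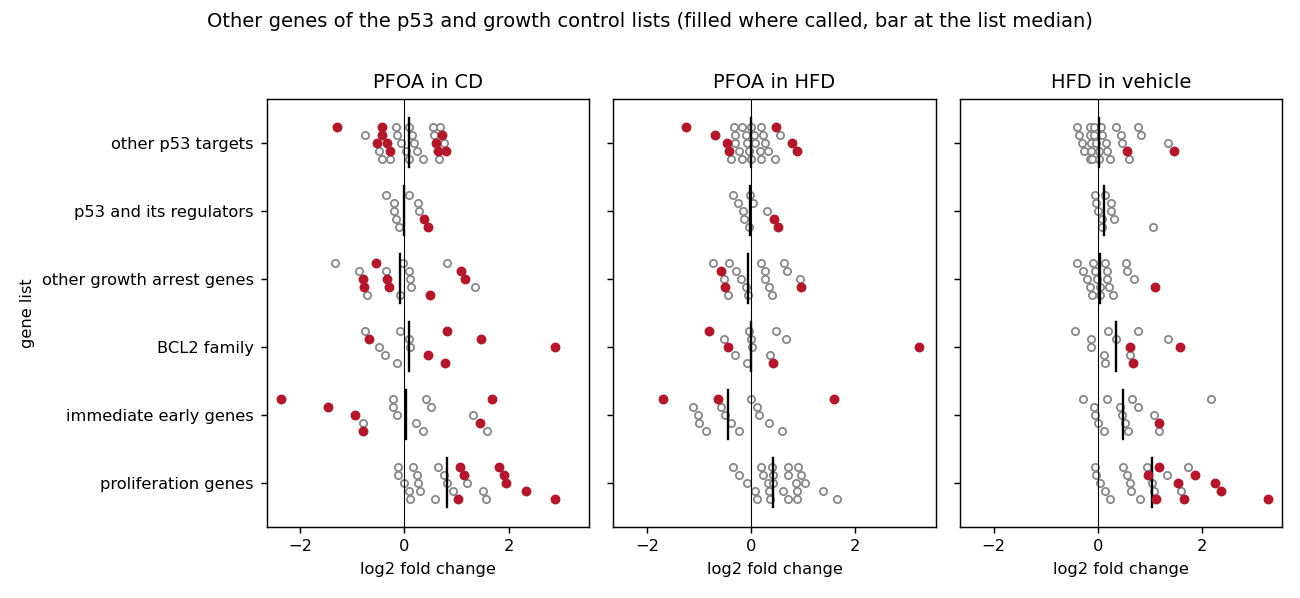
Log2 fold change of each tested gene of 6 lists in 3 comparisons, filled where called, with a bar at the list median. The other p53 targets lie on both sides of 0, and the called proliferation genes all lie right of it.

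Proliferation genes, the transcripts of dividing cells, were described beside Cdkn1a because p21 restrains division. Of 25 tested, 8 rose and 0 fell with PFOA in CD, where 11.8% of all tested genes rose. With HFD under vehicle 9 rose and 0 fell, where 5.19% of all tested genes rose. With PFOA in HFD 0 were called by edgeR, against 5 at an unadjusted p under 0.05 and 2 by DESeq2. With HFD under PFOA 0 were called by edgeR or DESeq2. At an unadjusted p under 0.05, 12 were higher and 0 lower there, against 1665 of 14998 tested genes in either direction. The list median there was 0.9. HFD_PFOA against CD_vehicle had 18 higher and 0 lower, with a median log2 fold change of 1.98, where 14.9% of all tested genes were higher. Their summed level was 62.7 to 97.1 CPM in CD_vehicle, 106.2 to 127 in HFD_vehicle, 97.7 to 113.5 in CD_PFOA and 97.01 to 228.7 in HFD_PFOA. CD_vehicle 4 was the highest CD_vehicle library, and without it 12 rose with PFOA in CD, 12 with HFD under vehicle and 3 with PFOA in HFD. Over the fits that each left out 1 library, the number of risers ran from 3 (without CD_vehicle 3) to 12 for PFOA in CD and from 3 (also without HFD_vehicle 1 or 2) to 12 for HFD under vehicle. For PFOA in HFD it ran from 0 to 4, the highest without HFD_PFOA 1.

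Mki67, a marker of cycling cells, was 3.42, 3.66, 4.59 and 11.4 CPM in CD_vehicle and 11.2, 12.1, 13.6 and 10.4 CPM in CD_PFOA. It was 15.3, 11.2, 8.73 and 15.1 CPM in HFD_vehicle and 12.6, 23.5, 39.9 and 22.1 CPM in HFD_PFOA. CD_vehicle 4, again the library with high B cell, macrophage and other markers, lay in the range of the CD_PFOA group. The other CD_vehicle libraries lay below all 3 other groups. Mki67 rose by 1.03 with PFOA in CD (adjusted p = 0.0343) and by 1.13 with HFD under vehicle (adjusted p = 0.043). In the same comparisons Cdkn1a fell with PFOA in CD (−1.03) and differed by 0.64, not called, with HFD. Macrophage markers rose for 9 of 15 genes with HFD under vehicle and for 1 of 15 with PFOA in CD. The first count was 4 without CD_vehicle 2, CD_vehicle 3 or HFD_vehicle 4, and the second was 4 without CD_vehicle 4 and 3 without CD_vehicle 1 and CD_vehicle 4. Their summed level was 308.6 to 617 CPM in CD_vehicle, 257.3 to 613.7 CPM in CD_PFOA and 669.2 to 977.9 CPM in HFD_vehicle. Markers of stellate cells, the fibre-forming cells of liver, rose for 5 of 10 genes with HFD under vehicle and for 2 of 10 with PFOA in CD, where leaving out 1 library gave 1 to 3. They summed to 265.6 to 501.6 CPM in CD_vehicle, 405.8 to 521.4 CPM in CD_PFOA and 625.8 to 689.9 CPM in HFD_vehicle. Endothelial markers rose for 4 of 10 genes and fell for 1 with PFOA in CD. With HFD under vehicle 2 of them rose and 1 fell, where leaving out 1 library gave 1 to 4 risers. Which cells the proliferation transcripts came from was not tested.

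**Figure D4:**
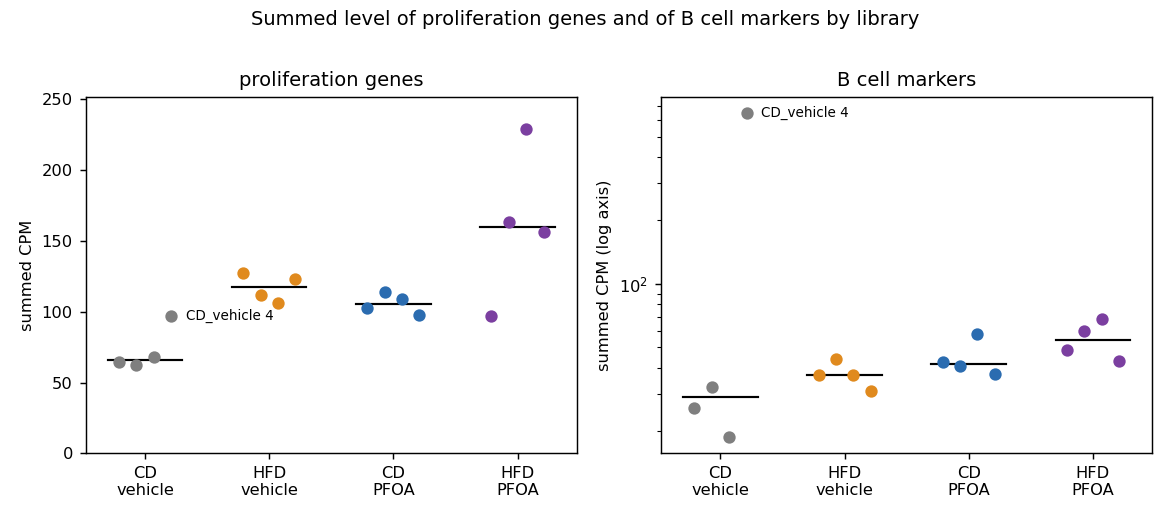
Summed CPM of 25 proliferation genes (linear axis) and of the B cell markers (log axis) in each library, by group, with a bar at the group median. CD_vehicle 4 stands at 97.1 CPM on the left and at 647 CPM on the right, above the other CD_vehicle libraries in both.

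A list of 10 genes of G1 entry held cyclins and kinases, which p21 and its relatives inhibit, and the transcription factors E2f1 and Myc. In it 1 gene, Myc, rose with PFOA in CD, and 2, Myc and Cdk4, rose and 1, Cdk6, fell in HFD. The count in CD was 2 without CD_vehicle 4 and 3 without CD_vehicle 1 and CD_vehicle 4. With HFD under vehicle 2 rose, Myc (1.17, adjusted p = 0.0439) and Cdk6, and 0 fell. That count was 4 without CD_vehicle 1 and CD_vehicle 4. Cdk4 rose by 0.53 with PFOA in HFD (adjusted p = 0.00169). Cdk6 was 0.47 higher with HFD under vehicle (adjusted p = 0.00126) and fell with PFOA in HFD (−0.32, adjusted p = 0.00993). In the BCL2 family, to which Bax belongs, 5 of 13 other genes rose and 1 fell with PFOA in CD, and 2 rose and 2 fell in HFD. With HFD under vehicle 3 rose and 0 fell. The fall in CD was not called without CD_vehicle 1, and 2 fell without CD_vehicle 2, CD_PFOA 2 or HFD_vehicle 3. The count of risers in HFD was 1 without HFD_vehicle 3. Hrk, an activator of apoptosis, rose by 2.90 in CD (adjusted p = 1.81e-04) and 3.22 in HFD (adjusted p = 1.21e-04), from levels of at most 0.749 CPM in the vehicle libraries. Bak1, which acts like Bax, rose by 0.46 and 0.43. Bik, another activator of apoptosis, rose by 1.48 with PFOA in CD (adjusted p = 0.00336) and by 1.59 with HFD under vehicle (adjusted p = 0.00577). The survival genes Bcl2l1 and Mcl1 rose by 0.67 and 0.62 with HFD under vehicle and fell with PFOA in HFD (−0.80 and −0.45).

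Immediate early genes were described because Btg2 and the Gadd45 genes share inducers with them. Of 16 tested, 2 rose and 4 fell with PFOA in CD, and 1 rose and 2 fell in HFD. The count of risers in CD was 1 without CD_vehicle 2 or CD_PFOA 1, 4 without CD_vehicle 1 or CD_vehicle 4, and 8 without both of the latter. Their summed level was 447 CPM in CD_vehicle 4 and 242.1 to 322.5 CPM in the other CD_vehicle libraries. Dusp1 fell with PFOA (−1.47 in CD, adjusted p = 1.97e-06, and −1.69 in HFD, adjusted p = 4.6e-07), as did Zfp36 (−0.80 and −0.64), like Cdkn1a and Gadd45g. Myc, a driver of growth, rose by 1.69 in CD (adjusted p = 0.00154) and 1.6 in HFD (adjusted p = 0.00233). With HFD under vehicle Myc was the 1 gene of the list that was called, higher by 1.17 (adjusted p = 0.0439). In that comparison 7 genes rose without CD_vehicle 4. For HFD_PFOA against CD_vehicle Myc was higher by 2.77 (adjusted p = 8.8e-06). Of 10 genes of the integrated stress response, whose factor ATF4 also induces Gadd45a, 5 rose and 2 fell with PFOA in CD, and 5 rose and 1 fell in HFD. Trib3 rose by 2.97 in CD and 1.89 in HFD, Vldlr by 2.90 and 2.25, and Asns by 2.5 and 2.26, while Atf4 itself fell in CD (−0.55). The gene that fell with PFOA in HFD was Chac1 (−2.3, adjusted p = 7.14e-05). With HFD under vehicle 2 of the 10 rose, Trib3 (0.84, adjusted p = 0.0139) and Chac1 (1.13, adjusted p = 0.034). In that comparison 1 fell, Atf4 (−0.57, adjusted p = 2.63e-04). Genes of the circadian clock, which shapes the daily rhythm of Cdkn1a in liver, changed for 13 of 16 genes with PFOA in CD, among them Dbp (4.52), Arntl (−1.85) and Cry1 (−2.06). In HFD, 6 of the 16 rose and 5 fell with PFOA, among them Dbp (2.48), Arntl (−0.96) and Cry1 (−1.6). With HFD under vehicle 2 of the 16 rose and 0 fell, and Dbp was among the risers (1.6, adjusted p = 0.0187). The hour at which livers were taken is not stated in the labels used here, and the part of these pathways in the members' changes was not tested.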

How the data were processed

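RNA of flash-frozen livers was sequenced from non-stranded libraries, per the labels' protocols, for 16 mice, each a biological replicate per the series design. Per the submitters' processing notes, the authors used STAR 2.5.2b on GRCm38 (mm10) and featureCounts of Subread 1.6.0, after bcl2fastq 2.20.0.422 and Trimmomatic 0.33. Neither the annotation release nor the handling of reads shared between genes is stated there. The authors deposited whole-number read counts, not normalized, for 53465 genes.

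Groups follow the diet and treatment labels. Every pair of libraries within a group differed by more than counting noise (chi-square over its degrees of freedom 8.55 to 152). All 16 libraries entered 1 quasi-likelihood fit of edgeR 4.0.16 (R 4.3.3, limma 3.58.1), with filterByExpr (14998 genes kept), TMM scaling, 12 residual degrees of freedom and Benjamini-Hochberg adjustment over the tested genes. SEs were taken as the size of the log2 fold change divided by the root of F. Positive values of PFOA or HFD comparisons mean higher with PFOA or HFD, and the interaction is PFOA in HFD minus PFOA in CD. CPM are counts per 1e+06 of the TMM-scaled library. Exon lengths, gene positions and overlaps are from GENCODE M21 (GRCm38), and promoters are from RefSeq (GRCm38.p6). The test was checked on simulated data. Alternatives were DESeq2 1.42.0, RLE or total scaling, no filter, fits on the compared groups alone, leaving out each library, and leaving out CD_vehicle 1 and CD_vehicle 4 together, which was chosen after seeing the data.

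The text names all 9 members, Trp53, up to 4 genes per list with the smallest p among those called in a comparison, the index genes Acot1 and Cidec, and the 2 genes closest to a member by Pearson's r. Zmat3, Aen, Eda2r and the antisense neighbour of Gadd45a lie outside this rule and were chosen after their values were seen. The members and the 20 gene lists, drawn from general knowledge, were chosen with earlier results of these data known. Counts limit precision at low levels, since reads carry no molecular identifiers and intervals cover the spread between these mice.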

Additional observations from a re-analysis of the deposited data

Results flagged for a closer look

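Among 36 groups of 4 libraries of the members, 1 held a library far from the others. Gadd45b was 3.50 CPM in CD_vehicle 4 and 0.0458 to 0.626 CPM in the other CD_vehicle libraries, a gap of 0.832 of the group's range. Mki67 had the same outlying library, at 11.4 CPM against 3.42 to 4.59 CPM (gap 0.853). Over the 52 genes examined, 8 of 208 groups held such a library (3.85%), and chance gives about 1 in 20.

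The other 6 were single libraries of named genes. The gap was 0.921 for Fas in CD_PFOA 1 (28.7 CPM against 23.4 to 23.8), 0.847 for Tnfrsf10b in CD_PFOA 2 (1.53 CPM against 0.818 to 0.927) and 0.831 for Mdm4 in CD_vehicle 2 (31.9 CPM against 23.4 to 24.8). For Cdk4 it was 0.853 in CD_PFOA 1 (50.8 CPM) and 0.868 in HFD_vehicle 1 (38.1 CPM), and for Cdk6 it was 0.852 in HFD_vehicle 3 (39.0 CPM, the lowest of its group).

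The PFOA effect differed between diets for 2 of these genes. The interaction was −1.95 for Gadd45a, with the limits given in the report. It was −2.38 for Cidec, a lipid droplet gene (adjusted p = 0.016), which was 5.22 to 28.6 CPM in CD_vehicle and 96.7 to 143 CPM in the other groups.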

How the results depend on the processing

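The alternatives gave 1179 log2 fold changes of members beside the 54 reported, of which 1070 kept their direction and their side of the threshold, 19 lost a call, 27 gained one and 63 changed sign. The calls of Gadd45a with PFOA, Gadd45g with PFOA, Cdkn1a with PFOA and Gadd45b with PFOA in CD held in all 22 alternatives. So did the call of Gadd45a with HFD under vehicle, with adjusted p of at most 0.0434. Leaving out 1 library at a time, the number of members called ran from 1 to 4 for HFD under vehicle and from 0 to 2 for the interaction. The number of all genes called ran from 881 to 2272 for HFD under vehicle, from 1 to 56 for HFD under PFOA and from 13 to 352 for the interaction. For HFD under vehicle, members called were 3 with library totals, 4 with no filter, 2 with only the compared groups and 4 without CD_vehicle 1 and CD_vehicle 4, and all genes called were 896 with only the compared groups and 2363 without those libraries (1561 reported). For HFD under PFOA, against 9, all genes called were 169 by DESeq2, about 2.3e+02 with no filter, 129 with only the compared groups and 208 without CD_vehicle 1 and CD_vehicle 4. For the interaction, against 31, they were 202 by DESeq2, 290 with no filter and 652 without those libraries, which also gave 2 members. With library totals the median of all genes went from −0.03 to 0.19 for HFD under vehicle and from 0 to 0.18 for HFD_PFOA against CD_vehicle. The share of higher calls with totals was 87.7% (reported 49.9%) for HFD under vehicle, 61.1% (48.2%) for PFOA in CD, 71.9% (49.8%) for HFD_PFOA against CD_vehicle, 91.7% (77.8%) for HFD under PFOA and 13.6% (32.3%) for the interaction. The cause of these moves was not tested.

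Signs changed only for values that were not called. For Bax and HFD under vehicle the log2 fold change was 0 by DESeq2, RLE scaling and no filter, 0.21 with library totals, 0.02 with only the compared groups and 0.04 without CD_vehicle 1 and CD_vehicle 4, and its interaction was −0.11 with totals and −0.02 without those libraries. Without those libraries Mdm2 was 0.01 and Btg2 0.03 for PFOA in CD, and 0.01 and 0.56 for HFD_PFOA against CD_vehicle. With totals Mdm2 was 0.08 for HFD under PFOA, and Mdm2, Ccng1 and Phlda3 were 0.05, 0.04 and 0.04 for HFD_PFOA against CD_vehicle. Leaving out 1 library at a time, HFD under vehicle ran from −0.18 to 0.09 for Bax, −0.06 to 0.09 for Ccng1, −0.12 to 0.3 for Gadd45g and −0.04 to 0.12 for Mdm2. HFD under PFOA ran from −0.06 to 0.11 for Bax, −0.27 to 0.08 for Cdkn1a, −0.09 to 0.39 for Gadd45b, −0.07 to 0.07 for Mdm2 and −0.01 to 0.51 for Phlda3. The interaction ran from −0.07 to 0.19 for Bax, −0.48 to 0.07 for Btg2 and −0.13 to 0.03 for Mdm2. PFOA in CD ran from −0.04 to 0.11 for Ccng1, and HFD_PFOA against CD_vehicle from −0.4 to 0.15 for Btg2 and −0.43 to 0.16 for Phlda3.

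No paired analysis was possible because the labels give no replicate numbers, and the numbers used here follow only the order of the records. With 4 mice a group, low transcripts such as Phlda3 and Gadd45b were measured with wide intervals. Whether mice shared cages or were processed on different days is not stated in the labels.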
